A study of Mus musculus with 18 samples.

Results

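Naive extracellular vesicles (EVs) were compared with the naive adipose-derived stromal cells (ASC) of the same study. The members are the 9 libraries whose source names read naive EV (1 to 5) or naive ASC (1, 3, 4 and 5), out of 18 libraries in the series. ASC are mesenchymal cells grown from fat tissue, here from adult mice of the strain NGL, and EVs are the membrane particles that cells shed into their medium. Naive cells received no interferon gamma, and cells were kept for 48 h in alpha MEM with 2% serum that the labels call EV-free. A molecule label that names EV miRNA stands on the ASC libraries too, so the groups were taken from the source names. The other 9 libraries come from cells given interferon gamma for 24 h beforehand and enter only through the shared estimate of spread and 1 comparison near the end. The labels do not say whether replicates came from separate animals or cultures, so the p-values speak for the spread among these libraries, which may be technical. RNA came from a SeraMir column for EVs and from TRIzol with RNeasy columns for ASC, so the isolation method and the kind of sample cannot be told apart in any difference below.

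MicroRNAs (miRNAs) are short RNAs cut from hairpin precursors and loaded into Argonaute proteins, where bases 2 to 8, the seed, do most of the pairing with target messages. Each hairpin can give a 5p and a 3p mature arm, and miRNAs that share a seed form a family with overlapping targets. Cells release some miRNAs in EVs or bound to protein, and stromal cell EVs are widely studied as carriers of such RNA. The counts here are per hairpin locus and do not separate the arms.

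Each sequence below is a mature arm of a locus described further on, from RefSeq (GRCm38.p6), written 5′ to 3′ with the seed in capitals. The loci of the first 4 were higher in EVs and those of the next 4 were lower. The last 4 come from loci of blood cell and vessel miRNAs that were far higher in EVs. These directions are those of the hairpin loci, since single arms were not counted.
miR-21a-5p: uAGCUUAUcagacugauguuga
miR-22-3p: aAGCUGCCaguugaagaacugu
miR-101a-3p: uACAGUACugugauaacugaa
miR-340-5p: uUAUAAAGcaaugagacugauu
miR-125a-5p: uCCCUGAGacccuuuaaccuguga
miR-193b-3p: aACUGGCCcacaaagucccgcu
miR-214-3p: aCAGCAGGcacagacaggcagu
miR-191-5p: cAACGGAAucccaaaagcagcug
miR-451a: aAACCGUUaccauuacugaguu
miR-144-3p: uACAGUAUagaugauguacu
miR-223-3p: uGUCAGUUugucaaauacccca
miR-126a-3p: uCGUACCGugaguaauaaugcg

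Total counts ran from 486237 to 2245823 per library, on 322 to 423 loci. The labelled cell type was checked against 9 mesenchymal marker loci, whose summed level was 176000 to 445000 CPM (counts scaled to a common TMM-adjusted library total) in ASC and 617000 to 857000 in EVs. Most of that sum lay on Mir22, Mir143 and, in EVs, Mir21a. All pairs of libraries within a group differed by more than sampling noise. Naive EV 4 stood apart in blood cell miRNAs and naive ASC 5 in the shares of its most abundant loci, and values without them are given where they matter. All 9 libraries were kept.

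Of 245 loci tested, which held 99.9523% of the counts of the 9 libraries, 162 (66.1%) differed between EVs and ASC by edgeR's quasi-likelihood test at a Benjamini-Hochberg adjusted p under 0.05. In EVs 82 loci (33.5%) were higher and 80 (32.7%) were lower, so that 50.6% of the calls were higher. With scaling by library totals alone, 65 were higher and 116 lower, or 35.9% higher, and the median log2 fold change over all loci moved from -0.24 to -0.70. In 143 loci (58.4%) the 5 EV and 4 ASC values did not overlap, and 132 calls (53.9% of loci) were at least 2-fold. With TMM scaling the increases were larger than the decreases. The median log2 fold change was 1.98 among loci that were higher and -1.32 among those that were lower. Library totals alone shifted the median over all loci by -0.46 and changed which loci were called. These 2 sizes were not compared under that scaling. At least 16-fold changes were found at 13 loci that were higher and 3 that were lower. Replicates of both kinds were about equally spread: over 124 loci at 100 CPM or more in both groups, the median coefficient of variation was 22.3% in EVs and 21.2% in ASC.

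**Figure D1:**
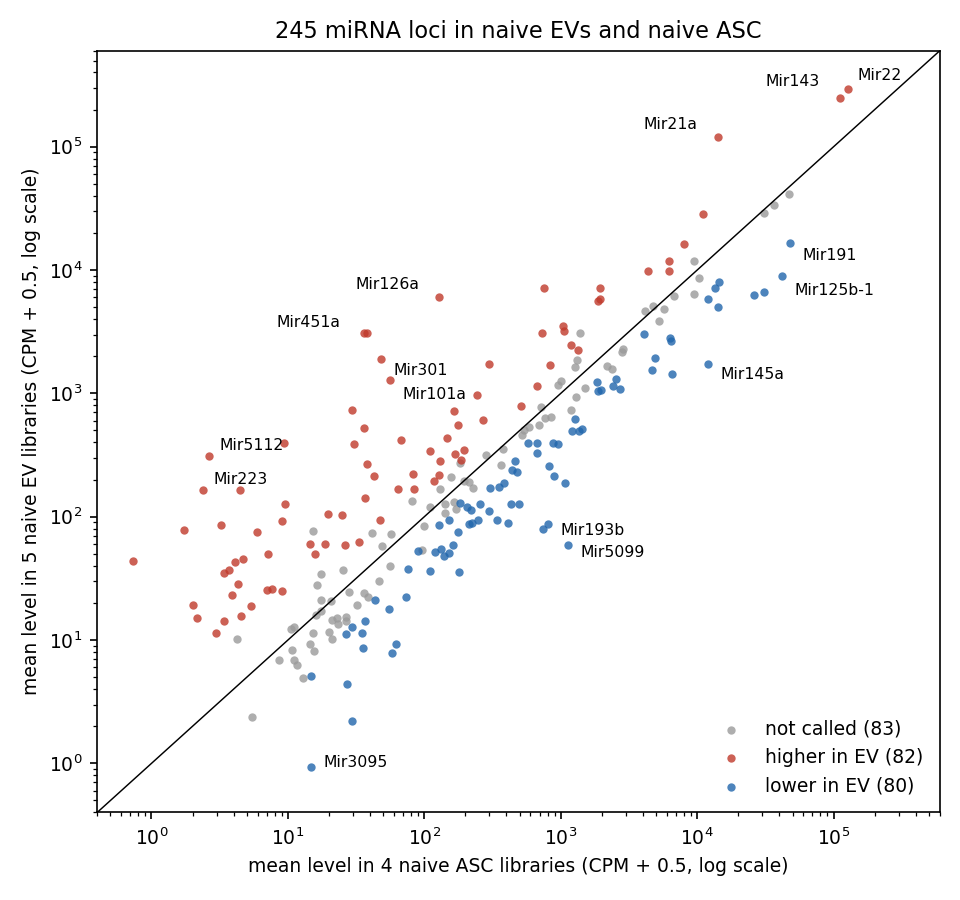
Mean level of each of 245 loci in 4 naive ASC libraries (horizontal) and 5 naive EV libraries (vertical), in CPM + 0.5 on log axes, with the line of equal level. The 82 higher and 80 lower loci lie above and below the line, and Mir451a and Mir126a lie far above it.

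Mir21a, a miRNA of growth and fibrosis on chromosome 11 at 86584067 to 86584158 (minus strand, GRCm38) in a UTR of Vmp1, showed the largest change among the abundant loci. Its level was 129180, 100930, 120930, 136520 and 112840 CPM in naive EV 1 to 5, and 14168, 18413, 16991 and 7716 CPM in naive ASC 1, 3, 4 and 5. Every EV library was above every ASC library, and the log2 fold change was 3.07 ± 0.22 (SE; edgeR quasi-likelihood test, adjusted p = 5.56e-10 by Benjamini-Hochberg). The 2 most abundant loci of both groups moved less. Mir22, on chromosome 11 at 75463716 to 75463810 in an exon of Mir22hg, had 267630 to 343230 CPM in EVs, with a median of 286280, and 122650, 159730, 170840 and 52675 CPM in ASC. Mir143, known from smooth muscle and fibroblasts, had 187220 to 294390 CPM in EVs and 55060 to 143520 CPM in ASC. Both groups were fully separated at both loci, with log2 fold changes of 1.23 ± 0.24 for Mir22 and 1.15 ± 0.22 for Mir143 (SE).

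Other abundant loci showed no call or moved the opposite way. Mir10a and Mir10b, which lie among the Hox genes, overlapped between the groups, with log2 fold changes of -0.20 ± 0.30 and -0.10 ± 0.43 (SE; edgeR adjusted p = 0.565 and 0.832). The Mir10b values in ASC spanned 16799 to 71441 CPM, and without naive ASC 1, its highest library, the log2 fold change was 0.51. Mirlet7c-1 differed by -0.09 ± 0.16 (edgeR adjusted p = 0.638). With library totals alone Mir10a (-0.65) and Mirlet7c-1 (-0.59) were called lower. Mir191 was at 14286 to 18998 CPM in EVs and 39543 to 56902 CPM in ASC, with no overlap and a log2 fold change of -1.53 ± 0.16 (SE; edgeR adjusted p = 1.21e-07). Its reads were counted at a locus annotated on the strand opposite to miR-191, which the unstranded counting does not tell apart.

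The counts of EVs were held by fewer loci than those of ASC. In each naive EV library 27 to 30 loci held 90% of counts, against 34 to 41 in naive ASC, a difference of -7.25 loci (exact two-sided permutation test, p = 0.0159, the smallest that 5 against 4 libraries allow, adjusted p = 0.0238 over 9 measures). The 10 most abundant loci held 77.3% ± 1.21 of EV counts (SD, n = 5) and 65.2% ± 5.3 of ASC counts (SD, n = 4), and the groups did not overlap (exact permutation p = 0.0159, adjusted p = 0.0238). After thinning every library to 486237 counts, 315 to 332 loci had a count in EVs and 349 to 384 in ASC (exact permutation p = 0.0159, adjusted p = 0.0238). Without thinning, the difference of -40.9 loci was -32.6 and did not pass (exact permutation, adjusted p = 0.224). Among the loci tested for change it was -1.55 (exact permutation, adjusted p = 0.5).

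Many of the largest increases were at miRNAs of blood cells and vessels, with Mir5112 and Mir5119, described further on, above them. Mir451a, the erythroid miRNA made without Dicer, is on chromosome 11 at 78073170 to 78073241 in intergenic sequence. It was at 1560, 1388, 2111, 7806 and 2506 CPM in naive EV 1 to 5 and at 51.4, 24.7, 23.5 and 43.2 CPM in naive ASC 1, 3, 4 and 5. The lowest EV library was far above the highest ASC library, and the log2 fold change was 6.45 ± 0.71 (SE; edgeR adjusted p = 1.59e-07), or 5.75 without naive EV 4. Its neighbour Mir144, transcribed with it in red cells, was at 216 to 903 CPM in EVs and 5.42 to 12.0 CPM in ASC. Mir142b, a locus at which RefSeq places 2 miRNAs of all blood cells on opposite strands, was at 1630, 1806, 2409, 6674 and 3037 CPM in naive EV 1 to 5 and at 31.1 to 51.4 CPM in ASC. Mir223, the myeloid miRNA, was at 75 to 355 CPM in EVs and 1.23 to 2.71 CPM in ASC, and Mir150, of mature lymphocytes, at 453 to 1431 and 19.7 to 39.4 CPM. In all 5 loci the libraries of the groups were separated and naive EV 4 was the highest.

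Of the 11 loci on the haematopoietic list, 8 were higher in EVs, 2 were lower and 1 was not called. Of all loci 33.5% were higher and 32.7% lower. The median log2 fold change of the list was 2.64 against -0.24 over all loci. The 2 lower members were Mir15b (-2.05) and Mir342 (-1.01). The list held 0.789% ± 0.481 of EV counts (SD, n = 5) and 0.243% ± 0.0787 of ASC counts (SD, n = 4), with no overlap (exact permutation p = 0.0159, adjusted p = 0.0238). The difference of 0.546 percentage points was 0.337 without naive EV 4. In ASC the most abundant members of the list were the 2 lower loci, Mir15b (mean 891 CPM) and Mir342 (mean 665 CPM). The 6 defining blood cell markers were Mir142b, Mir223, Mir451a, Mir144, Mir150 and Mir486, which leaves out both lower members. They summed to 3970 to 17400 CPM in EVs and 109 to 178 CPM in ASC. None was at 0 in all libraries of a group. In the bulk ASC libraries, fewer cells of a type and less RNA per cell cannot be told apart. The part that blood cells or serum had in the levels of both groups was not tested.

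Mir126a, the endothelial miRNA hosted by Egfl7, at whose locus RefSeq places 2 miRNAs, was at 3671, 5612, 3968, 10538 and 6419 CPM in naive EV 1 to 5. In naive ASC 1, 3, 4 and 5 it was at 240, 88.7, 86.7 and 91.3 CPM. The groups were separated and the log2 fold change was 5.59 ± 0.59 (SE; edgeR adjusted p = 1.12e-07). The liver miRNA Mir122 was too low to be tested, with 1 to 12 counts in each naive EV library, 39 in all, and 0 counts in naive ASC. Against a floor of 3 counts over the group, that is at least 6.46-fold higher in EVs, for counting error only. Mir192, which liver and gut make, was at 642 to 1471 CPM in EVs and 114 to 374 CPM in ASC, with a log2 fold change of 2.00 ± 0.33 (SE; edgeR adjusted p = 2.73e-05). Of 9 loci on the list of miRNAs abundant in serum, 4 were higher in EVs (Mir16-1, Mir486, Mir223 and Mir451a), Mir320 was lower and 4 were not called, beside 33.5% higher and 32.7% lower of all loci. Scaling by library totals alone gave 3 higher and 3 lower, and the Mir16-1 call was lost (0.56, edgeR adjusted p = 0.0521).

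The epithelial markers varied more within the groups than between them. The 7 markers summed to 17.2, 35.6, 1392, 3357 and 623 CPM in naive EV 1 to 5 and to 34.3, 1408, 2219 and 269 CPM in naive ASC 1, 3, 4 and 5. Naive EV 1, naive EV 2 and naive ASC 1 were low, and the other 6 libraries were higher. Most of this was Mir205, an epithelial miRNA whose log2 fold change was -0.41 ± 1.30 (SE; edgeR adjusted p = 0.781). Of 10 epithelial loci tested, 3 were higher (Mir96, Mir200a and Mir141), 1 was lower (Mir184) and 6 were not called. Of all loci 33.5% were higher and 32.7% lower. The epithelial calls were 2 higher and 3 lower both without naive EV 4 and under scaling by library totals alone. Their median log2 fold change over the list went from 0.21 to -0.70 and -0.30. Mir141, of the miR-200 family, was at 0.98, 8.31, 173, 533 and 111 CPM in naive EV 1 to 5 and at 2.47 to 5.49 CPM in ASC, so the groups overlapped through naive EV 1. Its log2 fold change of 5.28 ± 1.35 (SE; edgeR adjusted p = 0.00198) was 4.09 without naive EV 4 and did not pass limma-voom (2.49, adjusted p = 0.322). The Mir200a call (3.36) was lost without naive EV 4 (2.10, edgeR adjusted p = 0.15). No striated muscle locus was tested, with marker sums of 0 to 28.9 CPM, and the neural markers summed to at most 3.92 CPM. Of 2 other neural loci tested, Mir129-2 was lower (-2.32) and Mir128-1 was not called (0.54).

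Several increases were at miRNAs of broad expression. Mir301, the symbol for miR-301a, on chromosome 11 at 87113004 to 87113089 in an intron of Ska2, was at 1580, 1839, 2360, 2105 and 1646 CPM in naive EV 1 to 5 and at 61.7, 36.6, 45.2 and 48.1 CPM in naive ASC 1, 3, 4 and 5. The EV values lay within a narrow band, and the log2 fold change was 5.32 ± 0.39 (SE; edgeR adjusted p = 9.46e-10). Mir101a, which targets the Polycomb methyltransferase Ezh2, was at 857 to 1630 CPM in EVs and 32.1 to 101 CPM in ASC, a log2 fold change of 4.54 ± 0.35 (SE; edgeR adjusted p = 1.41e-09). Mir340, in an intron of Rnf130, was at 417 to 662 and 27.4 to 39.7 CPM, a log2 fold change of 3.88 ± 0.30 (SE; edgeR adjusted p = 1.51e-09). At these 3 loci naive EV 4 lay close to the next EV library.

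Apart from Mir3095, which had few counts, the largest decrease was at Mir5099, an annotated locus with sequence like an abundant RNA, at 38.0 to 93.0 CPM in EVs and 912 to 1396 CPM in ASC (log2 fold change -4.29 ± 0.27, SE; edgeR adjusted p = 2.92e-10). Mir193b, a regulator of brown fat formation, is on chromosome 16 at 13449523 to 13449601, antisense to Gm15738. It was at 67.1, 76, 120, 68.1 and 99.1 CPM in naive EV 1 to 5 and at 1132, 754, 490 and 827 CPM in naive ASC 1, 3, 4 and 5. The groups were well apart, with a log2 fold change of -3.22 ± 0.27 (SE; edgeR adjusted p = 3.71e-09). Mir3102, a mirtron that is spliced rather than cut by Drosha, was at 48.1 to 103 CPM in EVs and 523 to 1003 CPM in ASC, with the same log2 fold change of -3.22 ± 0.26 (SE; edgeR adjusted p = 2.01e-09). Mir145a, the smooth muscle partner of Mir143, was at 1177 to 2309 CPM in EVs and 9555 to 13829 CPM in ASC (-2.79 ± 0.23, SE; edgeR adjusted p = 4.05e-09). Mir214, made from the Dnm3os transcript of mesenchymal cells, was at 999 to 1631 and 4102 to 9772 CPM (log2 fold change -2.17).

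**Figure D2:**
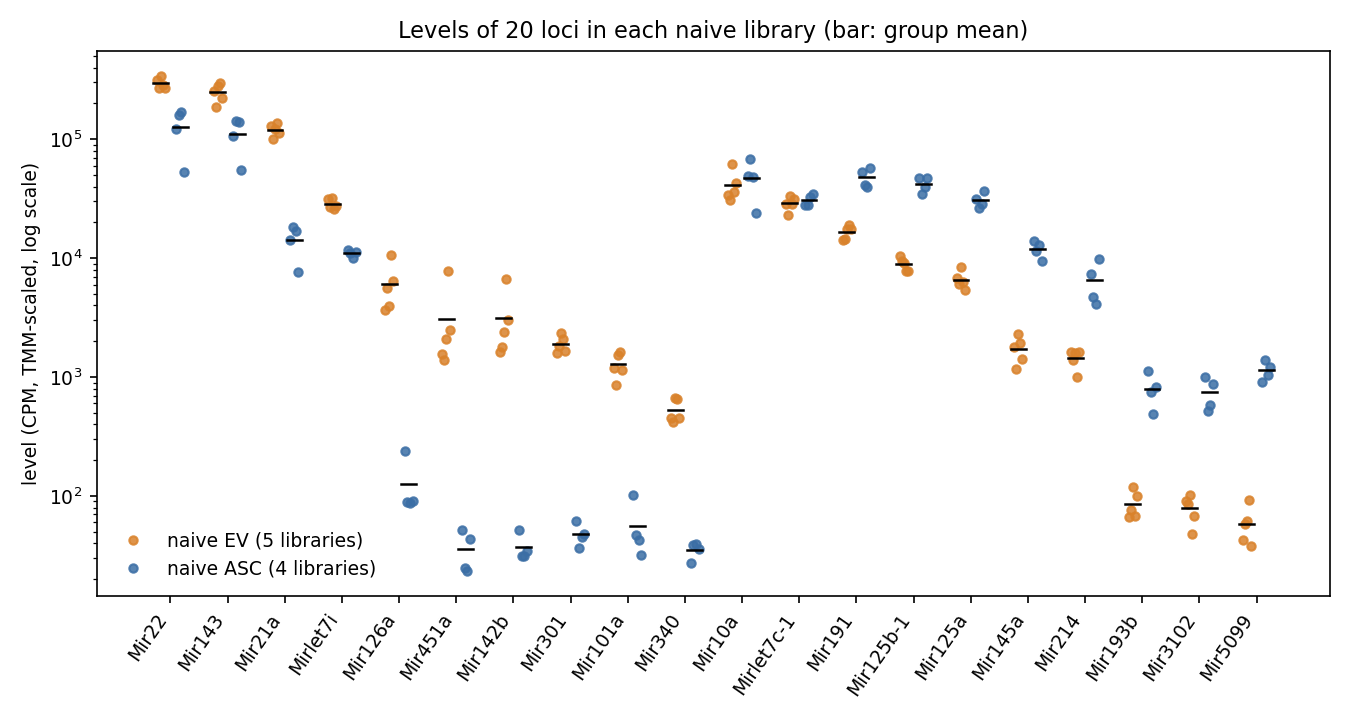
Level of 20 loci in each library, in TMM-scaled CPM on a log axis, with 5 naive EV points and 4 naive ASC points per locus and a bar at each group mean. Mir10a and Mirlet7c-1 overlap between the groups, and the other 18 do not.

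Low counts limited some large changes. Mir5112 was at 179 to 450 CPM in EVs and 0.915 to 3.43 CPM in ASC, the highest log2 fold change of all tested loci (7.20 ± 0.69, SE; edgeR adjusted p = 2.46e-08). Mir5119 had 189 counts in EVs and 1 in ASC, a ratio of 93.9 per library total with a 95% exact interval from 16.7 to 3730 for counting error only. Mir3095 had 2 counts in EVs and 50 in ASC, a ratio of 50.3 in favour of ASC with an interval from 13.2 to 427. Mir5112 and Mir5119 belong with Mir5099 to the 11 loci with sequence like rRNA, tRNA or other abundant RNA. Of these, 8 were higher, 2 lower and 1 not called, beside 33.5% higher and 32.7% lower of all loci. The median of the 11 loci was 2.02. Their share of counts did not differ beyond the spread (0.397% ± 0.167 in EVs, SD, n = 5, and 0.310% ± 0.062 in ASC, SD, n = 4; exact permutation, adjusted p = 0.429). Fragments of other RNAs cannot be told from miRNA reads at such loci.

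Of 30 mesenchymal loci tested, 10 were higher, 11 were lower and 9 were not called, near the 33.5% higher and 32.7% lower of all loci, and 22 were separated. Their median log2 fold change of -0.09 was positive with RLE factors (0.02), with TMMwsp factors (0.10) and without naive EV 4 (0.01), and was -0.53 with library totals alone (10 higher, 14 lower) and -0.22 with the hairpin GC trend removed. The higher members included Mir21a, Mir22, Mir143 and Mir29c, and the lower members included Mir145a, Mir214 and the miR-125 and miR-99 loci. The list held 74.8% ± 1.43 of EV counts (SD, n = 5) and 63.4% ± 8.23 of ASC counts (SD, n = 4), with no overlap (exact permutation p = 0.0159, adjusted p = 0.0238). The difference of 11.4 percentage points was 7.31 without naive ASC 5.

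Among 26 regulators of fat or bone cell formation, 12 were higher, 7 were lower and 7 were not called, beside 33.5% higher and 32.7% lower of all loci, but 9 higher against 11 lower with library totals alone. Mir30e (3.24 on the log2 scale) and Mir335 (3.66, and 4.36 without naive ASC 4) were the most increased, and Mir193b and the cartilage miRNA Mir140 (-1.49) the most decreased. The median of -0.05 was positive with RLE (0.05) and TMMwsp factors (0.14), and was -0.48 with library totals alone. Among 23 inflammation-linked loci, 6 were higher, 6 were lower and 11 were not called, both shares below those of all loci (33.5% and 32.7%). Scaling by library totals alone gave 5 higher and 11 lower, and the median of 0.11 was -0.36. Mir21a and Mir223 were among the higher and Mir125b-1 and Mir125a among the lower members.

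Of 13 loci linked to cell cycle arrest and p53, 5 were higher and 5 lower, near the shares of all loci (33.5% and 32.7%), or 3 and 5 with library totals alone. Within this list Mir34c, a p53 target, was higher (1.58 ± 0.21, SE; edgeR adjusted p = 2.16e-06), at 3727 to 7425 CPM in EVs and 1497 to 2368 CPM in ASC. Its neighbour Mir34b was at 237 to 487 and 475 to 717 CPM, and its call (-0.54, edgeR adjusted p = 0.0455) was lost in 13 alternatives, including fits without single libraries. Of 12 loci of hypoxia or vessel growth 4 were higher and 4 lower, or 2 and 5 with library totals alone, and Mir210, the best known hypoxia miRNA, was at 84.7 to 506 CPM in EVs and 109 to 471 CPM in ASC. The medians of these lists, 0.41 and 0.05, were -0.05 and -0.43 with library totals alone. Of 10 mirtrons and other loci made without Drosha or Dicer, 6 were lower, 3 were not called and Mir451a was higher, with a median of -0.98. Of all loci 32.7% were lower and 33.5% higher. With the hairpin GC trend removed, 4 loci of the list were lower and 1 was higher. The calls of Mir877 and Mir702 in that list were lost without naive ASC 5 (-0.67 and -1.20) and when the trend of each library on hairpin GC was removed (-0.65 and -1.06).

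**Figure D3:**
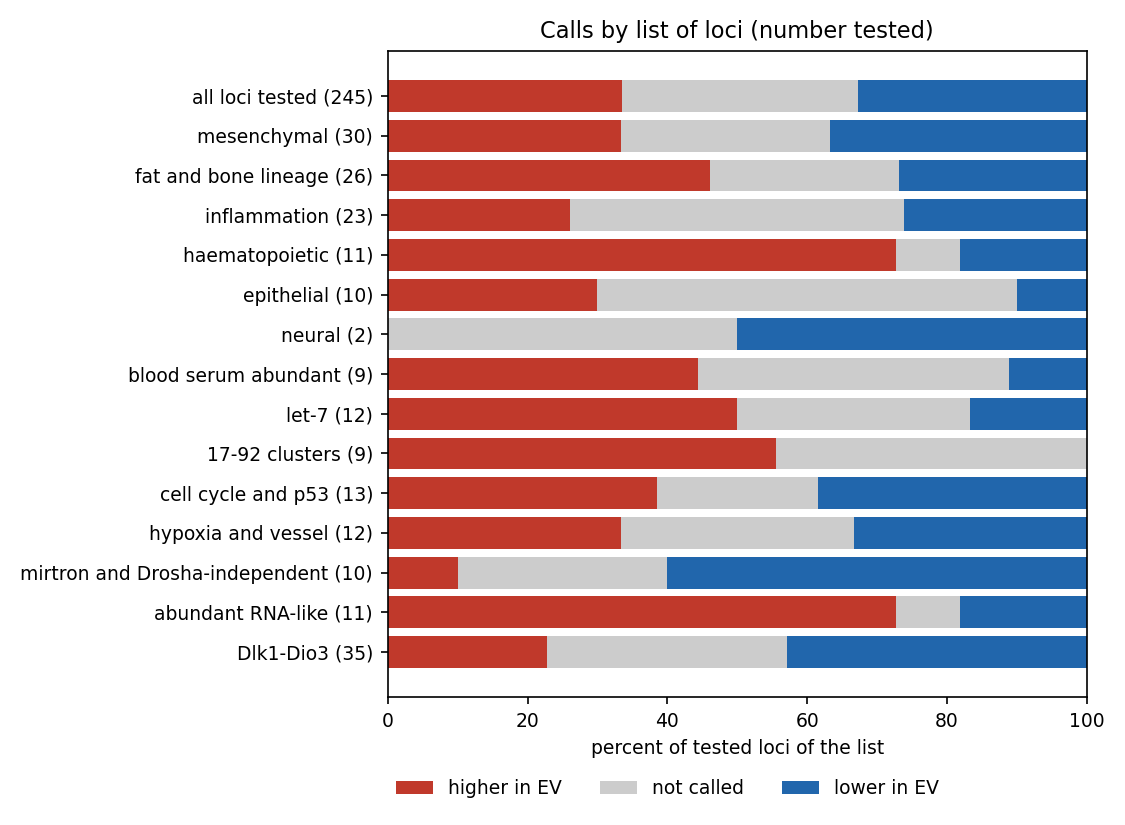
Percent of the tested loci of each list that were higher in EVs, not called or lower in EVs, with the number tested in brackets. Lists with fewer than 2 tested loci are not drawn. Of all loci, 33.5% were higher and 32.7% lower. Among the lists of at least 9 loci, the haematopoietic and abundant RNA-like lists have the widest share higher (8 of 11 loci each) and the mirtron list the widest share lower (6 of 10).

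The imprinted Dlk1-Dio3 region on chromosome 12, which carries a large maternally expressed miRNA cluster, had 35 tested loci, with 8 higher, 15 lower, 12 not called and a median of -0.56, beside 33.5% higher and 32.7% lower of all loci. The counts depended on the scaling, with 6 higher and 20 lower by library totals alone and 8 higher and 10 lower by TMMwsp. Its share of counts was 3.17% ± 0.704 in EVs (SD, n = 5) and 5.39% ± 0.761 in ASC (SD, n = 4), with no overlap (exact permutation p = 0.0159, adjusted p = 0.0238). The members ranged from Mir3072 (-4.01, and -4.88 without naive EV 3) and Mir667 (-2.50) to Mir376a (2.81). Mir376a was at 231 to 311 CPM in EVs and 29.1 to 47.0 CPM in ASC, counted at a locus on the strand opposite to the miRNA. Mir411, an abundant member, had 8993 to 13824 CPM in EVs and 7056 to 10422 CPM in ASC (0.32, edgeR adjusted p = 0.2).

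Neighbouring loci, which can be cut from 1 transcript, moved together in some clusters and apart in others. Of 34 clusters of tested loci within 10 kb on the same strand, holding 113 loci, 6 had every locus called in 1 direction, such as Mir144 with Mir451a and Mir16-1 with Mir15a, and 8 had calls in both directions. Mir143 (1.15) and Mir145a (-2.79) lie in 1 such cluster. On chromosome X at 53047997 to 53054349, Mir450b (3.60), Mir542 (3.52) and Mir322 (0.96) were higher and Mir351 (-1.27) and Mir503 (-1.59) lower. Mir351 was at 2024 to 3567 CPM in EVs and 5149 to 8658 CPM in ASC, while Mir450b was at 31.4 to 80.2 and 0.915 to 5.14 CPM. On chromosome 8 at 84208518 to 84208921, Mir24-2 (2.11) and Mir27a (1.18) were higher and Mir23a (-0.95) lower. The paralogous pair on chromosome 13, Mir27b (1.04) and Mir23b (-1.59), was split the same way. The miR-17-92 transcript Mir17hg gave Mir19a (4.86), Mir20a (3.82) and Mir17 (1.42), all higher, and Mir92-1 (-0.26, edgeR adjusted p = 0.344). Of 9 tested loci of this cluster and its paralogs, 5 were higher, 4 were not called and none was lower. Of all loci 33.5% were higher and 32.7% lower. With library totals alone 4 of these 9 were higher and 2 lower. Mir92-1 was by far the most abundant of the Mir17hg loci named, with 6694 to 11903 CPM in EVs and 7766 to 15034 CPM in ASC. The share of counts on the list was 1.03% ± 0.226 in EVs (SD, n = 5) and 1.59% ± 0.702 in ASC (SD, n = 4), which overlapped (exact permutation, adjusted p = 0.122). Without naive EV 4 the difference of -0.559 points was -0.647 and passed (adjusted p = 0.0367, exact permutation), and without naive ASC 5 it was -0.21.

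Loci with the same seed also differed. The sequences of 5 families are shown because their members share bases 2 to 8, in capitals, and differ in the rest. In the miR-29 family, which targets collagen messages, the log2 fold change was 0.11 ± 0.21 (SE) for Mir29a, -2.70 ± 0.49 for Mir29b-1 and 3.39 ± 0.48 for Mir29c. Mir29b-1 was at only 0.902 to 5.94 CPM in EVs and 17.1 to 36.1 CPM in ASC.
miR-29a-3p: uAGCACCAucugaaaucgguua
miR-29b-3p: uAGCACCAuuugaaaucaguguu
miR-29c-3p: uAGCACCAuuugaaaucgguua
In the miR-30 family it was -0.80 for Mir30c-2, 0.93 for Mir30a and 3.24 for Mir30e. Mir30b (1.58) and Mir30d (-0.85), for which RefSeq gave no mature sequence, are not counted in the seed family.
miR-30c-5p: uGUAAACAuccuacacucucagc
miR-30a-5p: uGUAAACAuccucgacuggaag
miR-30e-5p: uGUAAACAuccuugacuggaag
In the miR-130 family it was 0.74 for Mir130b, 0.75 for Mir130a, which was not called with library totals alone (0.30), and 5.32 for Mir301. Mir301b (1.79), in a cluster with Mir130b, is not counted in this seed family, as no mature arm with the seed was found for it.
miR-130b-3p: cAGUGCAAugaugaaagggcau
miR-130a-3p: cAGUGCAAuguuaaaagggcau
miR-301a-3p: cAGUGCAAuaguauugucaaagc
In the miR-17 family it was -0.15 for Mir106b, 0.79 for Mir93, whose call was lost without naive EV 4 (0.49), 1.42 for Mir17 and 3.82 for Mir20a.
miR-106b-5p: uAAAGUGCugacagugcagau
miR-93-5p: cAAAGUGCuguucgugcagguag
miR-17-5p: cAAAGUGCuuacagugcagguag
miR-20a-5p: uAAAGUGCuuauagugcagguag
In the let-7 family it ran from -1.04 for Mirlet7b through -0.09 for Mirlet7c-1 and 1.60 for Mirlet7g to 2.54 for Mir98.
let-7b-5p: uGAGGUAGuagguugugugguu
let-7c-5p: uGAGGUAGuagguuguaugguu
let-7g-5p: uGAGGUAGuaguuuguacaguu
miR-98-5p: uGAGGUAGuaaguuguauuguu

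The let-7 family, which restrains growth and is abundant in differentiated cells, had 12 tested loci. Of these, 6 were higher, 2 lower and 4 not called, beside 33.5% higher and 32.7% lower of all loci. Mir98 was at 1266 to 2434 CPM in EVs and 210 to 346 CPM in ASC, and Mirlet7i, its most abundant higher member, at 25933 to 31985 and 10072 to 11704 CPM. Mirlet7b was at 4967 to 6491 CPM in EVs and 10142 to 14860 CPM in ASC. None of these 3 overlapped between the groups. With library totals alone 5 members were higher and 5 lower and the median went from 0.41 to -0.08, and the call of Mirlet7c-2 (-0.43) was lost in 14 alternatives. The share of counts on the family was 9.17% ± 0.784 in EVs (SD, n = 5) and 10.2% ± 2.44 in ASC (SD, n = 4), which overlapped (exact permutation, adjusted p = 0.571).

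Of 14 seed families with at least 3 tested loci, 9 spanned 2 or more on the log2 scale and 6 had calls in both directions. These families hold only loci for which RefSeq gave a mature arm with the seed. In the miR-125 family, which includes Mir351, all 4 loci were lower, from -2.24 to -1.27. Mir125b-1, on chromosome 9 at 41581926 to 41582002, was at 7851 to 10375 CPM in EVs and 34675 to 47235 CPM in ASC, and Mir125a at 5358 to 8355 and 26626 to 36509 CPM. Mir125a and Mir99b lie in 1 cluster in Spaca6 and were lowered alike (-2.23 and -2.05). Mirlet7e, which lies between them, was not called (0.15, edgeR adjusted p = 0.461). In the miR-15 family Mir15a was higher (2.64) and Mir15b lower (-2.05), at 155 to 261 CPM in EVs and 724 to 1227 CPM in ASC. Among 13 pairs of loci with an identical mature sequence, the difference in log2 fold change was 0.05 to 1.85, it was at least 1 in 4 pairs, and no pair had opposite calls. How reads that map to both copies were counted is not given in the sources used here, so values of single copies are uncertain.

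**Figure D4:**
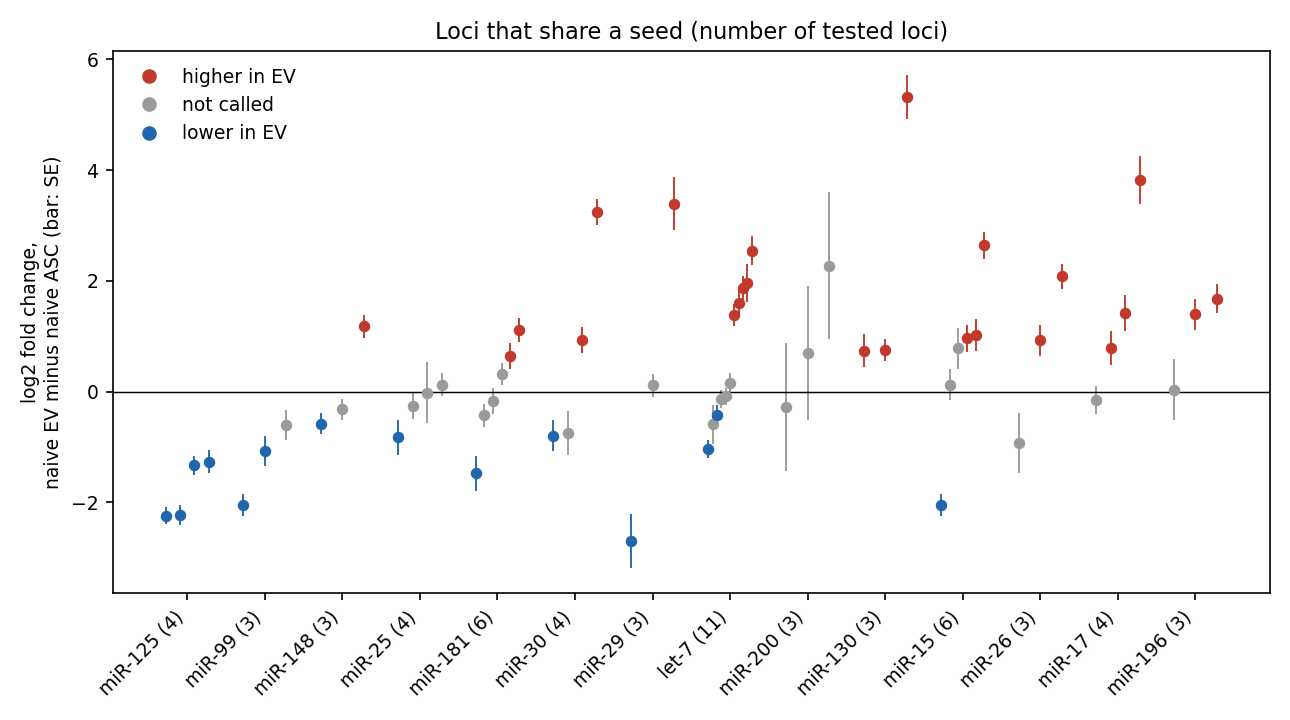
Log2 fold change, naive EV minus naive ASC, of the loci in 14 seed families with at least 3 tested loci, with bars of 1 SE and the number of loci in brackets. Loci for which RefSeq gave no mature arm with the seed are not drawn. Only the miR-125 family has all its loci called lower, and 9 of 14 families span at least 2 on the log2 scale.

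The loci that were higher in EVs had less GC in their annotated mature arms than those that were lower. GC content was the mean over the annotated arms of a locus, whichever arm gave the counts. RefSeq gave a mature sequence for 228 of 245 loci, and the median GC content was 45% for 75 higher loci, 54.5% for 72 lower loci and 48.9% for all 228. Of 30 loci under 40% GC, 17 were higher and 4 lower, with a median log2 fold change of 1.76, and of 43 loci at 60% or more, 7 were higher and 23 lower, with a median of -1.03. Across the 228 loci, which share libraries and are not independent replicates, GC content was related to log2 fold change with r = -0.35 (Pearson) and rho = -0.47 (Spearman). In the let-7 sequences above, GC content falls from 45.5% in let-7b to 31.8% in miR-98. In 9 of the 14 seed families the highest locus had less GC in the arm with the seed than the lowest, in 3 the same and in 2 more. When the GC trend of each library was removed, an alternative chosen after seeing the data, 80 of 82 higher and 68 of 80 lower loci kept their calls. That trend was on hairpin GC, which was less closely related to the log2 fold change (r = -0.17, Pearson, and rho = -0.25, Spearman, over 245 loci), so the part of arm GC in the calls was not tested.

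The letters GGAG, searched in the mature RNA strand only and sharing no base with the other motif, were in 1 of 75 higher loci (1.33%), 21 of 72 lower loci (29.2%) and 37 of all 228 (16.2%). The higher locus was Mir339 (0.98), named here after its value was seen. A locus was counted for a motif if any of its annotated arms held the letters. CCCU was in 6 of 75 higher loci (8.0%), 22 of 72 lower loci (30.6%) and 44 of all 228 (19.3%), and 17 loci had both motifs. CCCU lies in the seed of miR-125a-5p shown above. Loci with GGAG had a median arm GC of 59.1% against 47.7% for those without, and loci with CCCU 60.2% against 47.7%. A U as the first base was found in 40.9% of the arms of higher loci and 32.8% of those of lower loci, beside 37.1% of all 423 arms.

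Some loci had counts in 1 group only. With at least 10 counts in the other group, 15 loci were at 0 in all naive ASC libraries and 1 was at 0 in all naive EV libraries, and none passed the filter for testing. Among the 15 were Mir122, the heart miRNA Mir208b (32 counts, in 3 of 5 EV libraries), Mir363 (26 counts) and Mir194-1 (24 counts), at least 1.66-fold to 6.46-fold higher against a floor of 3 counts over the group. Mir7689 had 12 counts in naive ASC and 0 in naive EVs, at least 8.05-fold lower in EVs.

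The same contrast in cells given interferon gamma shares no library with the naive one. The difference between the contrasts passed at 0 of 245 loci (edgeR quasi-likelihood test, smallest adjusted p = 0.232), with an unadjusted p under 0.05 at 26. Mir21a had a log2 fold change of 3.07 in naive and 3.58 in primed samples, Mir101a 4.54 and 4.43, Mir125b-1 -2.24 and -2.52, and Mir193b -3.22 and -3.58. The smallest adjusted p belonged to Mir3095, with few counts, at -4.80 and -1.23, and to Mir143 at 1.15 and 2.32, and Mir6236, an abundant RNA-like locus, had 1.76 and -0.03. The blood cell locus Mir451a had 6.45 and 4.59, a difference of 1.87 (edgeR adjusted p = 0.36).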

How the data were processed

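Small RNA libraries (TruSeq Small RNA, 5 µl of RNA each) were analysed from raw counts per miRNA hairpin locus. The authors deposited these counts as 1 file per library, with no normalization. Per the file headers, the unstranded counting used featureCounts 1.5.3 with miRNA genes of Ensembl release 76. The tools in the submitters' processing notes are STAR 2.0.4, bcl2fastq and Subread with featureCounts 1.45, another version than in the headers, and the build is GRCm38. How reads were trimmed and aligned is not given in the sources used here.

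Of 2009 loci, 1899 matched GENCODE M21 by identifier, and the other 110 held 5 of 17629699 counts in 18 libraries. The miRNA name of 15 loci came from RefSeq, 6 of them annotated on the strand opposite to RefSeq's miRNA. Low loci were removed with filterByExpr over the 4 groups, and the rest were scaled by TMM and fitted with 1 mean per group over 18 libraries in edgeR 4.0.16 (R 4.3.3). The contrast naive EV minus naive ASC was tested with glmQLFTest and adjusted by Benjamini-Hochberg over 245 loci at 0.05. SE is the size of the log2 fold change divided by the root of F. Alternatives used limma 3.58.1 (voom), DESeq2 1.42.0, other scalings, filters, thinning and left-out libraries. Library shares were tested in scipy 1.17.1 with exact two-sided permutation tests, and unless said otherwise intervals cover counting error only, since no molecular identifiers were counted.

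Loci named are the 15 largest increases and decreases among calls that are separated with at least 10 CPM in the higher group, the 10 most abundant of each group, at most 6 members of a list, and members of the families, clusters, copies and single-group loci described. Lists and members were chosen with earlier results of these data known. On simulated counts for naive EV against naive ASC, with 243 loci tested, the fit recovered 77 of 80 tested loci changed 4-fold (96.2%). It called 3 of 163 unchanged loci. The simulation used a common baseline and the same spread for all loci, with as many increases as decreases simulated. It does not give the error rate of the calls in the real data.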

Additional observations from a re-analysis of the deposited data

Results flagged for a closer look

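In 182 groups of 4 or 5 values examined, 17 held a value far from the rest of its group by Dixon's criterion at 95%, which chance gives in about 1 in 20 groups. Naive EV 4 held 6 of them, all high and all at blood cell miRNAs: Mir451a at 7810 CPM (others up to 2510), Mir142b at 6670, Mir223 at 355, Mir144 at 903 and Mir150 at 1430 CPM, and the haematopoietic share of counts at 1.63%. Naive ASC 5 held 7. Its 10 most abundant loci held 57.3% of counts (others at least 67.1%), the mesenchymal list held 51.2%, 90% of counts lay on 41 loci, and the 17-92 list held 2.63%. Mir423 (7890 CPM) and Mir877 (368 CPM) were high and Mir411 (7060 CPM) was low in naive ASC 5. In naive ASC 1, Mir142b (51.4 CPM) and Mir126a (240 CPM, others at most 91.3) were high. Mir15a was high in naive ASC 3 (80.5 CPM). Mir5119 had its only ASC count in naive ASC 4 (0.903 CPM).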

How the results depend on the processing

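The 162 calls, 82 higher and 80 lower, became 132 to 181, 65 to 94 and 63 to 116 over all alternatives, and no call took the opposite direction in any of them. Leaving out single libraries gave 147 to 162 calls, 77 to 84 higher and 63 to 79 lower. Of 70 named calls, 60 held in every alternative that tested them. Loci with a count differed by -32.6 without thinning (exact permutation, adjusted p = 0.224) and by -1.55 among tested loci (adjusted p = 0.5). The 17-92 share, -0.559 percentage points in all 9 libraries (exact permutation, adjusted p = 0.122), was -0.647 without naive EV 4 (adjusted p = 0.0367) and -0.21 without naive ASC 5. Without single libraries the ranges were -46.5 to -34.9 loci with a count, -8.0 to -5.67 loci that hold 90% of counts, 9.43 to 13.2 points for the 10 most abundant loci, 7.31 to 13.2 for the mesenchymal list, 0.337 to 0.629 for the haematopoietic list, -2.5 to -1.89 for Dlk1-Dio3, -0.706 to -0.21 for the 17-92 list and -1.58 to 0.155 for let-7. Without a naive ASC library the measures that passed reached an adjusted p of 0.0536, since 5 against 3 libraries allow no smaller value for them, which says nothing about stability. Libraries with the same title number correlated at 0.424, 0.318, 0.423 and -0.16 in their deviations, and those with different numbers at -0.461 to 0.419. These values cannot settle whether the numbers mark pairs, since the ranges overlap and only 4 pairs share a number. The main test did not use the numbers. With the title number as a replicate block there were 167 calls, 85 higher and 82 lower, 159 of them among the 162, and 155 (78 and 77) with the 9 naive libraries alone. The paired library differences in that block were 11.7 points for the mesenchymal list and 0.609 for the haematopoietic list. Beside those given with the results, leaving out 1 library moved these log2 fold changes by over 1.5-fold: Mir5119 8.30 (naive ASC 4), Mir5108 6.47 (naive ASC 3), Mir6538 5.41 (naive ASC 1), Mir3095 -5.40 (naive EV 5), Mir700 -3.59 (naive EV 3) and Mir200a 4.05 (naive ASC 4). Depth limits loci with few counts in 1 group.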
